A study of Equus caballus with 8 samples.

Results

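Immediate early response genes were followed in the endometrium, the lining of the uterus, of 4 mares. The list held 35 genes chosen by name, of the FOS, JUN, EGR, NR4A, KLF, IER, DUSP and CCN families and their relatives. By symbol, 32 of the 35 matched a Gene ID among the 24942 in the count table, and JUND, IER5 and ZFP36 did not and were not analysed here. EGR4 had 2 counts over all libraries and was dropped, which left 31 genes with at least 10 counts in total. Of these, 30 passed the filter on low counts and were tested. FOSL1 did not pass it and is described by its counts.

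Each mare gave 1 transcervical biopsy while pregnant and 1 in a control oestrous cycle, both on Day 12 and in random order, so that 4 pregnant and 4 cyclic libraries form 4 pairs. The animals were healthy, normally cycling Bavarian Warmblood mares. Human chorionic gonadotropin (1500 IU) was given to induce ovulation, and pregnancy was recognised by an embryonic vesicle on ultrasound. The labels describe insemination of all mares with semen of 1 stallion, without saying whether this includes the control cycles. The uterus was flushed with up to 4 volumes of 1.5 l of buffered saline before the biopsy, and each biopsy was then cut into 6 slices, of which alternate ones went into an RNA preservative. The time from flushing to preservation is not stated. Ages are not stated.

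Immediate early genes are transcribed within minutes of a stimulus, without new protein synthesis, when growth factors, hormones, stretch or stress activate kinase cascades that end on factors already bound to their promoters, such as SRF with its ETS partners and CREB. Many encode transcription factors. FOS and JUN proteins pair as AP-1, EGR proteins bind GC-rich sites through zinc fingers, and NR4A proteins are orphan nuclear receptors. Others switch the response off, as DUSP phosphatases do for MAP kinases and ZFP36 proteins for unstable mRNAs. In the uterus such genes respond to oestrogen, prostaglandins, seminal and embryonic signals, and also to handling and wounding of the tissue.

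Levels are given as CPM, counts scaled by each library's total and by its TMM factor (trimmed mean of M values). Total counts were lowest for mare 1 when pregnant (9.81 M) and 15.5 to 16.7 M for the other 7 libraries, so 3 counts in a library are worth 0.180 to 0.306 CPM before the TMM factor is applied (counting error only). Markers of epithelium summed to 3064 to 3643 CPM in cyclic and 2937 to 3244 CPM in pregnant libraries, and none of the matched epithelial markers was at 0. Log2 fold changes compare pregnancy with the cycle in edgeR's quasi-likelihood test with the mare as block, and a gene with a Benjamini-Hochberg adjusted p below 0.05 over all 15342 genes is said to have risen or fallen. Gene levels are not corrected for transcript length, so they are compared between libraries and not between genes.

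Pregnancy was accompanied by modest rises of 3 of the 30 tested genes, FOSL2, ZFP36L1 and KLF6, each about 1.3- to 1.4-fold. No member fell (0 of 30 by edgeR, and 0 at an unadjusted p under 0.05; also 0 by limma-voom, by DESeq2 and by edgeR's likelihood ratio test). Over all genes tested 8.53% rose, 8.19% fell and 16.7% changed in either direction, so 3 of 30 (10.0%) is close to the background. At an unadjusted p under 0.05 were 6 members of 30, against 30.7% of all genes. FOS, FOSB, EGR1, JUNB, NR4A1 and most other classical members instead differed many-fold from library to library within both states. High libraries of these genes were found in both states. Over the 30 tested members the lowest library was most often cyclic, that of mare 1 for 15 and of mare 4 for 12. The highest was the cyclic library of mare 3 for 16 and the pregnant library of mare 4 for 8, with no shares of all genes given for these counts. With so wide a spread, the test cannot tell whether these genes follow pregnancy.

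FOSL2, the FOS relative whose protein is longer lived and accumulates late in the AP-1 response, had 243, 259.5, 282 and 244 CPM in the cyclic libraries of mares 1 to 4 and 391, 312.0, 377 and 343 CPM in their pregnant libraries. All 4 pregnant values lay above all 4 cyclic values. Its log2 fold change was 0.47 ± 0.09 (SE; 95% interval 0.27 to 0.66; adjusted p = 0.00679). ZFP36L1, a zinc finger protein that binds AU-rich elements and speeds mRNA decay, had 295, 229, 296 and 242 CPM in the cyclic and 339.0, 337, 389.6 and 362 CPM in the pregnant libraries. These groups did not overlap either, with a log2 fold change of 0.43 ± 0.09 (0.24 to 0.63; adjusted p = 0.00952). KLF6, a Krüppel-like zinc finger factor described as a tumour suppressor and wound-response gene, had 103, 105, 95.6 and 90.3 CPM in the cyclic and 143, 129, 109.7 and 144.0 CPM in the pregnant libraries. Its groups also lay apart, with the pregnant library of mare 3 nearest to the cyclic range, and the log2 fold change was 0.41 ± 0.08 (0.22 to 0.60; adjusted p = 0.0110). Without mares 1 and 4, a choice made after seeing the data, none of the 3 passed (adjusted p 0.153 for FOSL2, 0.0716 for ZFP36L1 and 0.233 for KLF6). Without mare 1 the adjusted p was 0.0514 for FOSL2 and 0.0668 for KLF6, and without the mare block it was 0.0767 for ZFP36L1 and 0.0691 for KLF6.

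Many markers of vessels and connective tissue also rose, beside 8.53% of all genes tested. Of 19 endothelial markers 14 rose, and their summed level was 1300.4 to 1991 CPM in cyclic and 1818 to 2386 CPM in pregnant libraries. Of 14 stromal markers 8 rose (sums of 3673 to 5096 against 4207 to 5031 CPM), and of 13 smooth muscle and pericyte markers 6 rose (418 to 660.1 against 645 to 979.9 CPM). Some markers leaned the other way without passing. Log2 fold changes were -0.15 for COL1A1, -0.17 for COL1A2 and -0.30 for OGN in stroma. They were -0.56 for MYOCD of smooth muscle and -0.11 for SOX17 of endothelium. None of these matched markers was at 0. In a biopsy, more cells of a type and more RNA per cell cannot be told apart, and the part of cell makeup in the rises of FOSL2, ZFP36L1 and KLF6 was not tested.

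IER3, a stress-inducible regulator of survival and ERK signalling, differed 4.03-fold between the states without passing the test. It had 33.9, 63.9, 79.8 and 32.5 CPM in the cyclic libraries of mares 1 to 4 and 218, 284, 129 and 183 CPM in the pregnant ones. All pregnant values exceeded all cyclic ones, and IER3 was higher in 4 of 4 mares. The log2 fold change was 2.01 ± 0.44 (0.69 to 3.33; adjusted p = 0.0753), and the log2 ratio within a mare went from 0.69 in mare 3 to 2.68 in mare 1. IER3 passed in 4 of 15 alternatives: DESeq2 (adjusted p = 5.14e-05), the likelihood ratio test (7.08e-05), the model with no mare block (0.0312) and the one that left out mare 3 (4.54e-05). Its adjusted p reached 0.347 over the others. Together with FOSL2, ZFP36L1 and KLF6 it makes 4 members of 30 (13.3%) whose pregnant libraries all lay above the cyclic ones, against 6.0% of all genes tested, and 0 lay the other way (4.73% of all genes).

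IER2, a nuclear protein that shares the family name only, showed no such separation, with 43.0, 74.0, 110.4 and 37.99 CPM in the cyclic and 42.6, 74.0, 59.8 and 81.2 CPM in the pregnant libraries (log2 fold change 0.04 ± 0.38; -1.09 to 1.17). The quotient of IER3 over IER2 CPM was 0.723 to 0.863 in the 4 cyclic libraries and 2.16 to 5.13 in the 4 pregnant ones. This pair was set side by side after its values were seen, and the quotient has no test.

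MAFF, a small MAF protein that pairs with other leucine zipper factors, was low in both states, with 1.35, 2.83, 3.23 and 0.868 CPM in the cyclic and 3.38, 4.77, 2.87 and 3.14 CPM in the pregnant libraries. It was higher in 3 of 4 mares (log2 fold change 0.84 ± 0.31; adjusted p = 0.0989) and passed in the likelihood ratio test and without mare 3. KLF10, a TGF beta-inducible repressor, had 35.9, 36.0, 33.7 and 41.4 CPM in the cyclic and 60.6, 37.2, 40.7 and 48.1 CPM in the pregnant libraries (0.32 ± 0.11; adjusted p = 0.0809), with the pregnant library of mare 1 the highest. FOSL1, the other late FOS relative, had 3, 4, 4 and 7 counts in the cyclic and 13, 22, 6 and 17 counts in the pregnant libraries, with the groups overlapping. It was tested only with the low-count filter removed, where it rose.

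**Figure D1:**
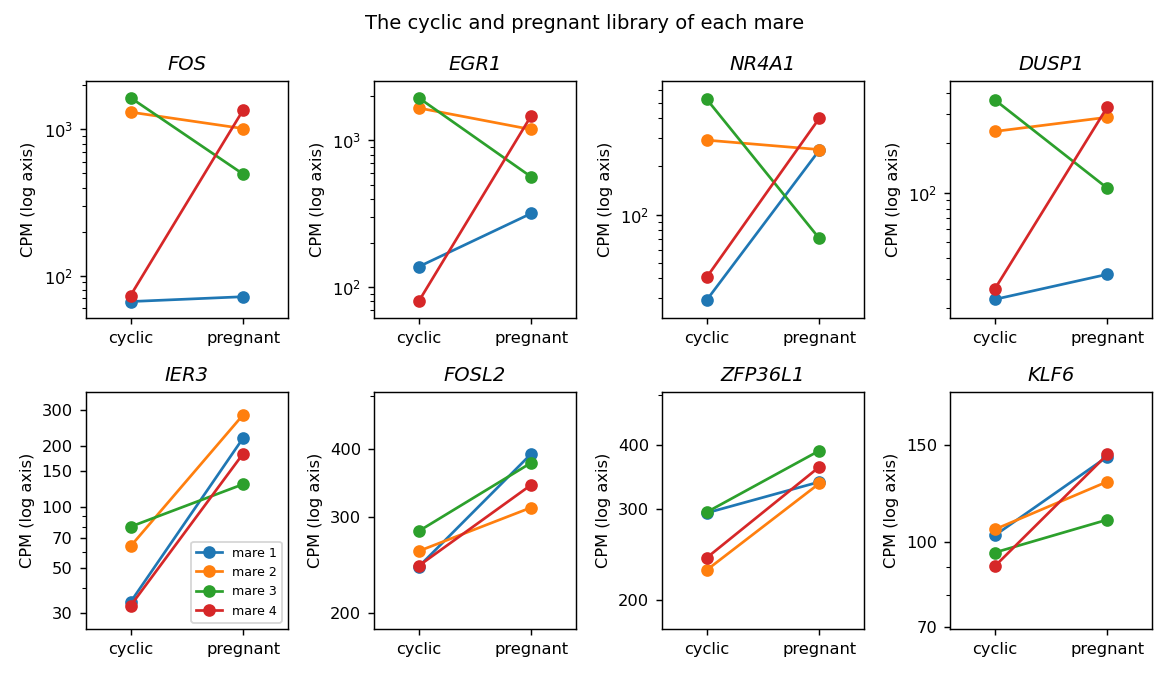
CPM (log axis) of 8 genes in the cyclic and the pregnant library of each mare, joined by a line per mare. The lines of IER3, FOSL2, ZFP36L1 and KLF6 all slope upward, whereas those of FOS, EGR1, NR4A1 and DUSP1 rise steeply in mare 4 and fall in mare 3.

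The founding members of the FOS and JUN families split the libraries into high and low ones in both states. FOS had 66.5, 1313, 1649 and 73.1 CPM in the cyclic libraries of mares 1 to 4 and 71.8, 1014, 495 and 1356 CPM in the pregnant ones. Both libraries of mare 1 and the cyclic library of mare 4 were low, and the highest library was 24.8 times the lowest. FOSB, a close paralogue that follows FOS in most tissues, had 5.15, 388.0, 519.6 and 4.65 CPM in the cyclic and 9.05, 198, 52.8 and 273.0 CPM in the pregnant libraries, the same libraries being low. Its range, 112-fold, was the widest of the members with more than 3 counts in every library. The log2 fold change was 0.27 ± 1.36 (-3.92 to 4.46) for FOS and -0.03 ± 2.26 (-7.02 to 6.95) for FOSB, intervals that hold both rises and falls of more than 10-fold.

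JUN, the leucine zipper partner of the FOS proteins, had 71.4, 397, 456 and 138 CPM in the cyclic and 73.8, 304, 148.0 and 354 CPM in the pregnant libraries, with a narrower range of 6.38-fold. JUNB, a JUN protein with weaker transactivation, had 62.1, 477, 681 and 59.4 CPM in the cyclic and 80.0, 309, 198 and 394 CPM in the pregnant libraries. The same 3 libraries were the lowest for both genes. Log2 fold changes were -0.16 ± 0.62 (-2.03 to 1.71) for JUN and 0.09 ± 1.01 (-3.03 to 3.20) for JUNB.

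EGR1, the zinc finger factor that is most often used as a sign of recent stimulation, had 138, 1661, 1950.1 and 79.8 CPM in the cyclic and 318, 1186, 564 and 1471 CPM in the pregnant libraries. Here the pregnant library of mare 1 stood above both low cyclic libraries, while staying under all the rest. EGR2 had 3.16, 32.3, 49.3 and 1.80 CPM in the cyclic and 20.8, 29.97, 16.6 and 55.8 CPM in the pregnant libraries. For EGR2 only the cyclic libraries of mares 1 and 4 were low, and the other 6 lay between 16.6 and 55.8 CPM. EGR3 had 2.06, 26.2, 47.1 and 1.43 CPM in the cyclic and 6.26, 17.8, 7.54 and 52.6 CPM in the pregnant libraries. The highest library was 24.4 times the lowest for EGR1, 31.0 times for EGR2 and 36.9 times for EGR3. Log2 fold changes of 0.61 ± 1.43, 1.08 ± 1.49 and 0.39 ± 1.76 did not pass (adjusted p from 0.703 to 0.916).

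Within the NR4A family the pregnant library of mare 1 was not low. NR4A1, also called NUR77, had 29.2, 292, 525.0 and 40.6 CPM in the cyclic and 252, 255, 70.9 and 399 CPM in the pregnant libraries. NR4A2 had 24.0, 69.6, 139.5 and 14.9 CPM in the cyclic and 94.2, 76.4, 44.4 and 112 CPM in the pregnant libraries. Low libraries for both were the cyclic ones of mares 1 and 4, followed by the pregnant one of mare 3. NR4A3 had 3, 70, 35 and 13 counts in the cyclic and 172, 105, 17 and 402 counts in the pregnant libraries, which is 0.193 to 4.40 CPM and 0.956 to 23.8 CPM. Log2 fold changes were 0.99 ± 1.76, 0.81 ± 1.07 and 2.33 ± 1.50, with adjusted p of 0.772, 0.689 and 0.408. The quotient of NR4A1 over FOS CPM was 3.52 for mare 1 in pregnancy and 0.143 to 0.555 in the other 7 libraries, and that of EGR1 over FOS was 4.43 in that library and 1.08 to 2.07 elsewhere. These quotients were formed after the values were seen and have no test. Members of the list thus did not share 1 order of libraries. That library was the shallowest, at 722 counts of FOS and 2539 of NR4A1.

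**Figure D2:**
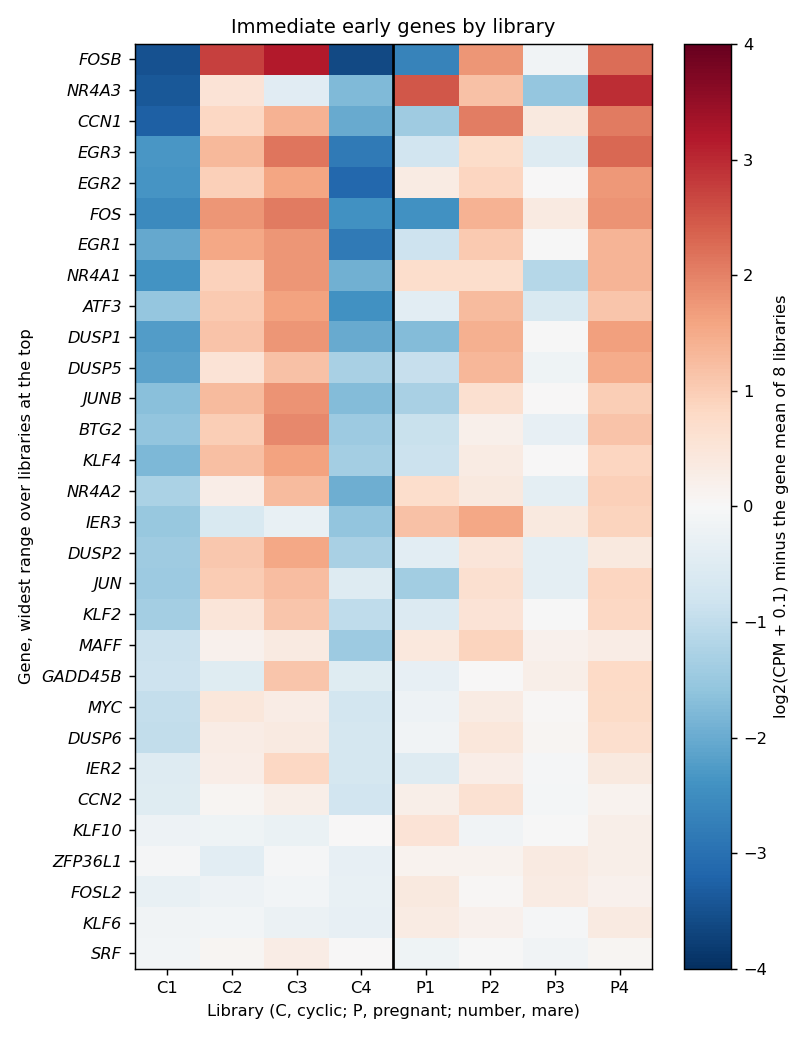
Log2(CPM + 0.1) of the 30 tested genes minus each gene's mean over 8 libraries, by library, with genes of the widest range at the top. The cyclic libraries C1 and C4 are blue for most genes, P1 is blue for FOS, FOSB and JUN and red for IER3 and the NR4A genes, and the bottom 5 genes hardly change colour.

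ATF3, a leucine zipper repressor induced by many stresses, had 14.7, 88.7, 131 and 7.93 CPM in the cyclic and 32.1, 104, 28.1 and 94.3 CPM in the pregnant libraries (log2 fold change 0.57 ± 1.25). KLF4, a factor of epithelial barriers and vessels, had 22.3, 179.5, 237 and 30.1 CPM in the cyclic and 42.6, 98.6, 79.7 and 143 CPM in the pregnant libraries (0.11 ± 0.91). KLF2, a shear-stress factor of endothelium, had 11.6, 42.0, 64.9 and 14.9 CPM in the cyclic and 20.5, 44.2, 29.6 and 53.1 CPM in the pregnant libraries (0.36 ± 0.63). All 3 were lowest in the cyclic libraries of mares 1 and 4 and overlapped between states. KLF2 in the cyclic libraries of mares 2 and 3 exceeded its level in the pregnant libraries of mares 1 and 3.

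MYC, the growth-promoting factor, had 19.8, 52.8, 47.4 and 23.2 CPM in the cyclic and 33.3, 48.7, 39.5 and 65.3 CPM in the pregnant libraries (log2 fold change 0.44 ± 0.38; adjusted p = 0.520). SRF, the serum response factor that binds the promoters of many of the other members, was steady at 40.1, 45.7, 53.6 and 43.7 CPM in the cyclic and 38.9, 43.3, 39.4 and 46.6 CPM in the pregnant libraries (-0.12 ± 0.09; -0.33 to 0.09; adjusted p = 0.424). Its highest library was 1.38 times its lowest, the narrowest range in the list.

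Among the MAP kinase phosphatases, DUSP1, which acts in the nucleus on p38, JNK and ERK, had 22.7, 234, 363 and 26.2 CPM in the cyclic and 32.1, 285, 106 and 329 CPM in the pregnant libraries. Its low libraries were those of FOS. DUSP6, which acts on cytoplasmic ERK, had a range of only 3.13-fold, with 9.66, 23.2, 24.2 and 11.5 CPM in the cyclic and 17.4, 26.2, 19.9 and 30.2 CPM in the pregnant libraries. DUSP2 and DUSP5, nuclear phosphatases, were at 0.451 to 4.16 and 0.708 to 9.95 CPM over the 8 libraries. None passed, with log2 fold changes from -0.27 ± 0.66 for DUSP2 to 0.75 ± 0.83 for DUSP5.

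BTG2, an antiproliferative partner of the mRNA deadenylase complex, had 13.3, 78.4, 152 and 14.5 CPM in the cyclic and 21.4, 45.3, 31.7 and 87.9 CPM in the pregnant libraries (log2 fold change -0.06 ± 1.11). GADD45B, a stress sensor upstream of p38 and JNK, had 9.47, 12.0, 36.6 and 12.1 CPM in the cyclic and 13.3, 17.0, 19.7 and 29.4 CPM in the pregnant libraries (0.33 ± 0.42). The cyclic library of mare 3 stood apart from the other cyclic ones for GADD45B, and without mare 3 the gene rose (adjusted p = 0.0281). CCN1, a matricellular protein of adhesion and wound repair, had 5.86, 102, 150.5 and 14.3 CPM in the cyclic and 21.4, 238, 75.3 and 244 CPM in the pregnant libraries (1.45 ± 1.14; adjusted p = 0.494). CCN2, its relative also known as connective tissue growth factor, moved less, with 207, 308, 343 and 170.5 CPM in the cyclic and 340.1, 440.2, 276 and 319 CPM in the pregnant libraries (0.46 ± 0.21; adjusted p = 0.203), and it rose only when mare 3 was left out (adjusted p = 0.00550).

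**Figure D3:**
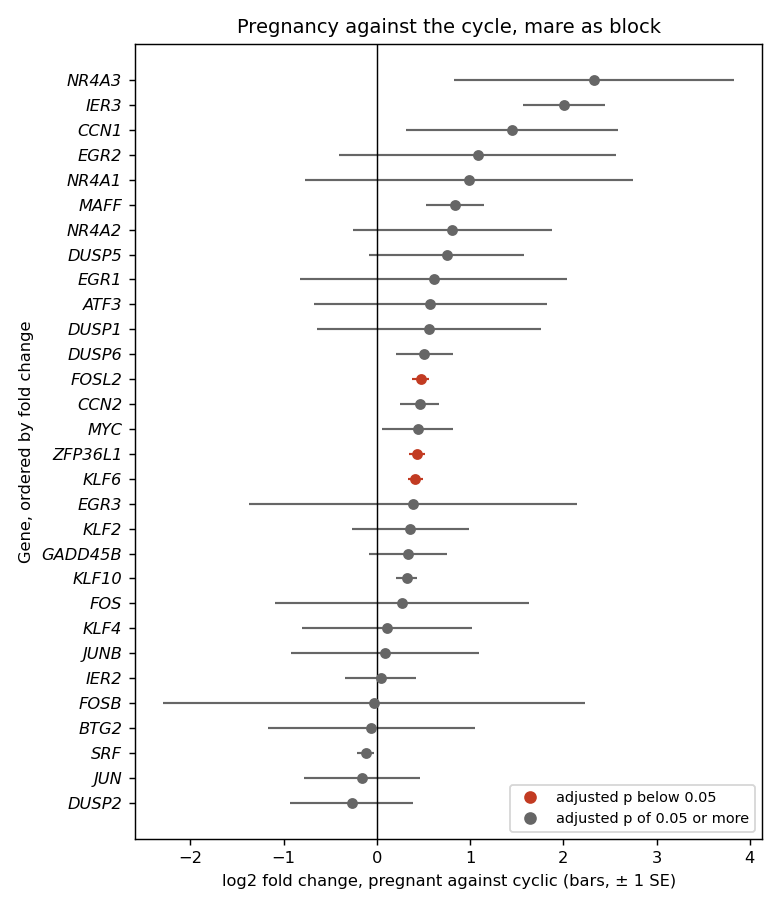
Log2 fold change of the 30 tested genes, pregnant against cyclic, with bars of 1 SE either side. FOSL2, ZFP36L1 and KLF6 (red) are the 3 with an adjusted p below 0.05; SRF and KLF10 have bars about as short, while the bar of FOSB spans more than 2 units either side of 0.

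The pairs of libraries show how the differences were distributed over animals. In mare 4 all 30 tested members were higher in pregnancy (51.0% of all genes) and 24 were at least 2-fold higher, against 3.18% of all genes, while 0 were at least 2-fold lower (1.19%). In mare 3 the direction was opposite: 17 of 30 were at least 2-fold lower in pregnancy, against 2.7% of all genes, 0 were at least 2-fold higher (3.5%), and 5 were higher by any amount (48.3%). Mare 1 had 28 members higher (50.4% of all genes), 11 of them at least 2-fold (3.64%), and 0 at least 2-fold lower (1.92%). Mare 2 had 16 higher (51.1%), 2 of them at least 2-fold (4.76%), and 0 at least 2-fold lower (2.32%). Median log2 ratios over the members were 0.81, 0.06, -1.24 and 2.37 in mares 1 to 4, against medians over all genes between -0.01 and 0.01. Mares 3 and 4 thus differed in opposite directions. The median log2 fold change over the 30 tested members was 0.44, beside 0.00 for all genes, and 25 of 30 had a value above 0 (50.8% of all genes), but the sign of 11 members turned without mare 4, none of them past the threshold. For 5 members the pregnant mean CPM was lower although the log2 fold change was above 0.

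Counted by library, the cyclic ones of mares 1 and 4 were the 2 lowest of the 8 for 22 of 30 members (5.17% of all genes), and together with the pregnant one of mare 1 they were the 3 lowest for 16 of 30 (2.93% of all genes). The cyclic library of mare 3 was the highest for 16 members and the pregnant library of mare 4 for 8, with no shares of all genes given. Many members varied together over the libraries, so such counts are not independent. Summed over the 20 members whose highest library was at least 4 times the lowest, the level was 528, 5459.9, 7211 and 557 CPM in the cyclic and 1338, 4511, 2085 and 5639.9 CPM in the pregnant libraries. These 20 were chosen by their range, so the size of this split follows in part from that choice. Over all 30 tested members the sums were 1534, 6606, 8533.5 and 1474 CPM in the cyclic and 2757, 5975, 3457 and 7110 CPM in the pregnant libraries. In the high libraries FOS and EGR1 weighed most in both sums. A range of at least 4-fold was found for 20 of 30 members (66.7%) and for 9.35% of all genes tested. Another 5 members, FOSL2, ZFP36L1, KLF6, KLF10 and SRF, stayed under 2-fold, and the remaining 5 were GADD45B at 3.86-fold, MYC, DUSP6, IER2 and CCN2.

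The spread left after the mare and the state was fitted is expressed as the biological coefficient of variation (BCV), the relative standard deviation beyond counting noise. Its median was 0.624 for the 30 members and 0.122 for all genes. In the top 5% of all genes (5.01% by count) were 24 of the 30, and 18 were in the top 1%. FOS had a BCV of 0.953, EGR1 of 0.972 and FOSB of 1.26. FOSL2 (0.132), ZFP36L1 (0.133) and KLF6 (0.106) had values near those of ordinary genes, and their standard errors of 0.08 to 0.09 compare with a median of 0.75 over the members and 0.11 over all genes. KLF10 (0.123) and SRF (0.109) were as steady.

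**Figure D4:**
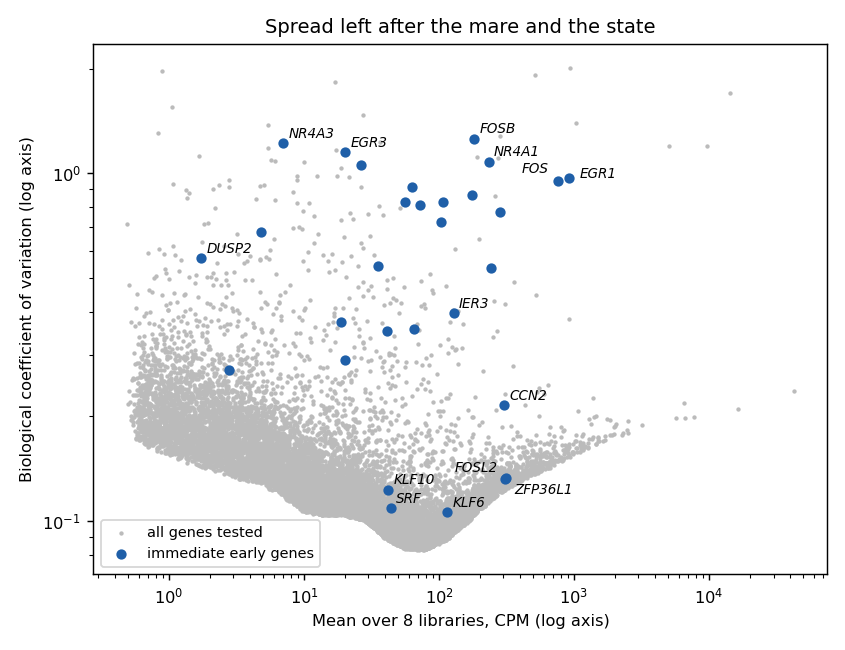
BCV (log axis) against the mean CPM over 8 libraries (log axis), with all 15342 genes tested in grey and the 30 immediate early genes in blue. FOS, EGR1, FOSB and NR4A1 lie far above genes of like mean CPM, whereas FOSL2, ZFP36L1, KLF6, KLF10 and SRF lie within the grey band.

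The members were also compared between mares, with the state in the model. By edgeR's quasi-likelihood test 0 of 30 differed between mares, 0 also at an unadjusted p under 0.05 (by the likelihood ratio test 0, and 2 at an unadjusted p under 0.05), against 15.9% of all genes at the adjusted and 34.1% at the unadjusted threshold. Mare 1 was low in both states for FOS and JUN, and mare 4 had a low cyclic and a high pregnant library for both. Without mare 3, 2 members differed between the remaining mares, and the share of all genes in that setting is not given here. The members' spread was wide (median BCV 0.624, against 0.122 for all genes), which makes differences between mares harder to find. The low count therefore does not show that members differ less between mares than other genes.

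In mRNA level, the genes that relay the signal to immediate early promoters showed no such split into high and low libraries. The activity of their proteins was not measured. Of 24 genes of the ERK, JNK and p38 cascades, 1 rose and 5 fell in pregnancy, beside 8.53% and 8.19% of all genes. MAPK3, which encodes ERK1, rose from 102.7 ± 7.49 to 125 ± 12.9 CPM (SD, n = 4), and BRAF, a kinase upstream of ERK, fell from 14.3 ± 2.42 to 10.1 ± 0.857 CPM. The median deviation of this list from each gene's mean was between -0.12 and 0.09 (log2) in every library, and that of all 30 tested members went from -1.48 to 1.19. Of 19 factors that act on immediate early promoters, 2 rose and 5 fell. ELK4, an ETS partner of SRF, fell from 10.2 ± 1.17 to 6.24 ± 0.384 CPM and ATF2 from 47.2 ± 4.59 to 36.5 ± 4.93 CPM, while WWTR1, the TAZ coactivator that drives CCN genes, rose from 99.5 ± 8.70 to 136 ± 13.6 CPM.

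Feedback inhibitors of the cascade rose in 4 of 15 cases and fell in 0, beside 8.53% and 8.19% of all genes. SPRY2, a Sprouty protein that restrains receptor tyrosine kinase signalling, rose from 5.90 ± 1.52 to 14.1 ± 2.07 CPM (log2 fold change 1.27 ± 0.12; adjusted p = 4.77e-04). SPRY4 rose 2.04-fold, SPRY1 1.55-fold and SPRED2 1.49-fold. Resembling IER3 in its values was DUSP4, an inducible nuclear phosphatase named here after its values were seen, with 0.129, 0.943, 2.61 and 0.124 CPM in the cyclic and 17.3, 10.96, 2.92 and 10.95 CPM in the pregnant libraries. These groups did not overlap, and the log2 fold change of 3.38 ± 1.28 missed the threshold (adjusted p = 0.199). Unlike IER3, DUSP4 was under the worth of 3 counts in the cyclic libraries of mares 1 and 4, so the size of its fold change is uncertain. ERRFI1, an inhibitor of ERBB receptors, had 46.9 to 109 CPM in the cyclic and 134 to 265 CPM in the pregnant libraries (1.24 ± 0.33; adjusted p = 0.0979), again chosen after seeing its values.

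Other early response genes outside the list rose in 8 of 45 cases and fell in 0, beside 8.53% and 8.19% of all genes. The 4 with the smallest p were KLF5 (1.65-fold), CITED2 (1.48-fold), BTG1 (1.33-fold) and ZFP36L2, a relative of ZFP36L1 (1.32-fold). In 10 of the 45 the highest library was at least 4 times the lowest, against 9.35% of all genes. The list's median deviation was -0.43 and -0.45 in the cyclic libraries of mares 1 and 4, and 0.00 to 0.33 in the others, a smaller range than that of the members. Named after its values were seen, SOCS3, a cytokine-induced inhibitor, had 0.966, 10.4, 10.4 and 0.929 CPM in the cyclic and 0.696, 3.22, 2.02 and 6.28 CPM in the pregnant libraries, low in the 3 libraries in which FOS was low.

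Handling of tissue can induce both immediate early and heat shock genes, so a heat shock list was read in the same libraries. Its median deviation was between -0.14 and 0.18, with 0.18 in the cyclic library of mare 4, where the immediate early genes were low, and the summed level of its 17 tested genes was 3543 to 4442 CPM. Of the 17, 2 rose, the small heat shock proteins HSPB8 (from 6.80 ± 1.71 to 47.6 ± 29.8 CPM; adjusted p = 0.0498) and CRYAB (2.42-fold), and FKBP4, a cochaperone of steroid receptors, fell. HSPA1A, a strongly inducible gene of this response, was not analysed here. Of 16 genes of the unfolded protein and integrated stress response 2 rose, ERN1 (1.50-fold) and VLDLR (3.65-fold), and the list's medians were lowest in the cyclic libraries of mares 1 (-0.20) and 4 (-0.19), which were also low in immediate early genes, and -0.02 to 0.15 in the others. Acute inflammatory genes had their lowest medians in the cyclic libraries of mares 1 (-0.70) and 4 (-0.22) and lay between -0.04 and 0.26 in the others, and 1 of 10, SELP, the selectin of platelets and endothelium, rose 1.74-fold. The part of sampling or handling in the levels of the immediate early genes was not tested, since the labels give no times or order of sampling per biopsy.

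**Figure D5:**
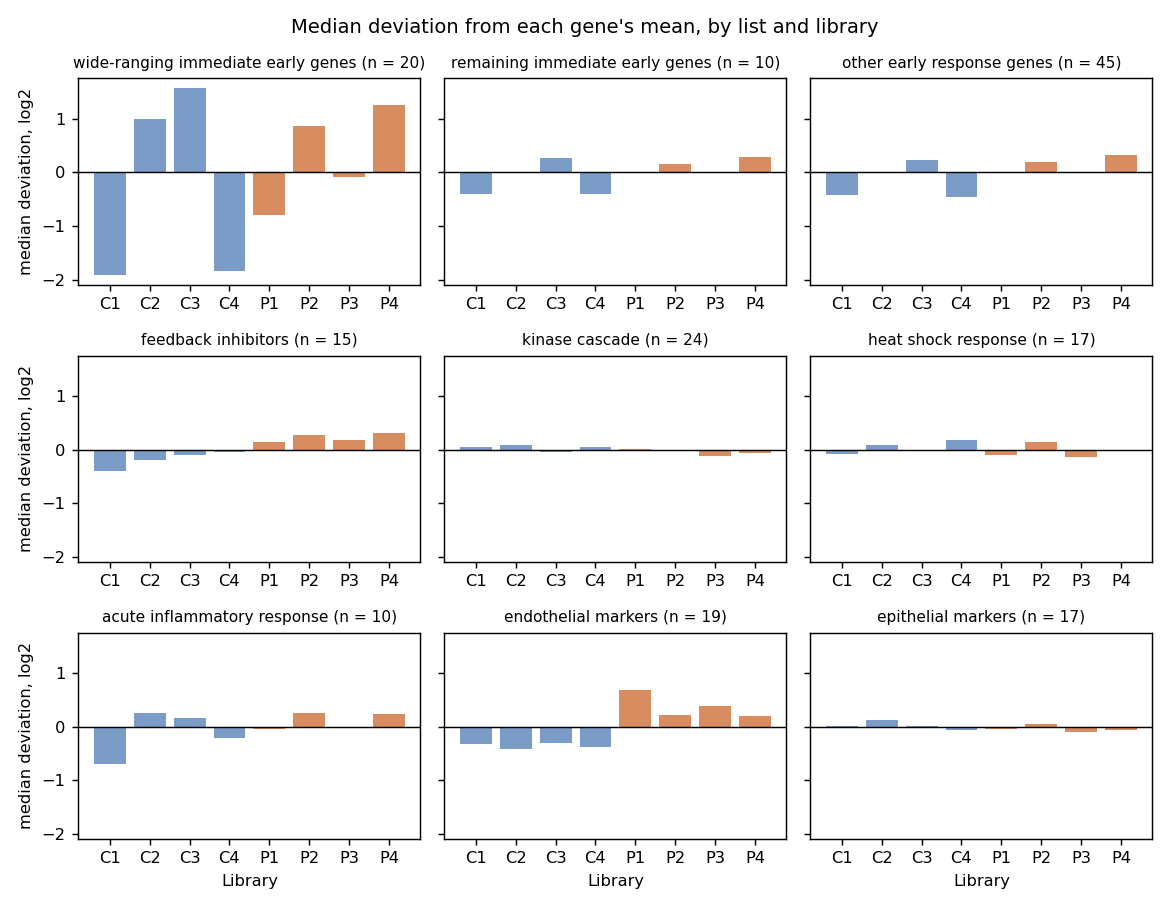
Median deviation (log2) of the genes of 9 lists from each gene's mean over 8 libraries, for cyclic (blue, C1 to C4) and pregnant (orange, P1 to P4) libraries. The 20 wide-ranging immediate early genes, chosen by their range over these same libraries, are low in C1, C4 and P1. The 45 other early genes are low in C1 and C4. The endothelial markers and feedback inhibitors are below 0 in every cyclic and above 0 in every pregnant library.

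Cell type markers were compared with the same library pattern. Beside the counts below, 8.53% of all genes tested rose and 8.19% fell. Medians of the epithelial list lay between -0.11 and 0.13 in all 8 libraries, and 4 of its 17 genes fell, among them KRT7 and KRT18. T and NK cell markers rose in 4 of 15 cases, with sums of 83.3 to 131.0 CPM in cyclic and 104 to 155 CPM in pregnant libraries. Macrophage and dendritic cell markers rose in 1 of 13 cases (194 to 291 against 229 to 301 CPM), and granulocyte and mast cell markers in 0 of 5 by edgeR (0 at an unadjusted p under 0.05), with sums of 56.6 to 286 against 46.7 to 249.6 CPM. The granulocyte and mast cell list was highest in both libraries of mare 4, of which 1 was low and 1 high in immediate early genes. Of 6 erythrocyte genes 1 was tested, GYPC, which rose 1.74-fold, and ALAS2 and SLC4A1 were at 0. Transcripts named as ribosomal RNA also differed between libraries, RN18S having 31888 and 21763 CPM in the cyclic libraries of mares 1 and 4 and 57069.8 CPM in the pregnant library of mare 2, against 146 to 1249 CPM in the other 5. The first 2 of these libraries were low and the third was high in FOS and EGR1, and the part of ribosomal RNA in the levels was not tested.

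Genes outside the list were ranked by the correlation of their log2 CPM with the members' median over the 8 libraries, 2 from each mare. MCL1, a survival protein of the BCL2 family, had Pearson's r of 0.991 with a narrow range of 272 to 392 CPM. EIF1, which guides start codon choice, had r of 0.969 and 266 to 394 CPM, and CARD19 0.977 and 18.5 to 28.6 CPM. The uncharacterised LOC102149242 (0.995) and the microRNA gene MIR24-1 (0.970), the latter at 0 in the cyclic libraries of mares 1 and 4, complete the first 5. After the mare and the state were taken out, 127 genes had r of at least 0.99, a fit that leaves few degrees of freedom. INHBB, ASXL2, SIDT2, FKBP14 and B3GALT6 led that ranking.

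Genes next to the members on the chromosome were read for the same ranges. The tested genes next to the 20 wide-ranging members in the reference gene table numbered 39, with a median range over libraries of 1.53-fold, and 4 of the 39 reached 4-fold, as did 9.35% of all genes. TMED10, beside FOS, had a range of 1.34-fold, ETF1, beside EGR1, of 1.23-fold, and ERCC1, beside FOSB, of 1.53-fold. BATF3, beside ATF3, was among the 4 with a wider one, at 6.41-fold.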

How the data were processed

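Poly(A) RNA was sequenced from 8 endometrial biopsies, 1 pregnant and 1 cyclic from each of 4 mares. RNA integrity numbers ran from 8.3 to 9.2, and the kit described does not mark strand, per the labels' protocols. The authors deposited raw read counts per NCBI Gene ID. Per the submitters' processing notes, HISAT2 2.0.3 and Trimmomatic 0.32.2 were used. The sources used here give no build, annotation or counting tool. A second deposited table of scaled signal values equals CPM after TMM scaling for 100% of its values (relative tolerance 1e-06) and served as 1 alternative. Unused columns of values per sample numbered 0.

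Symbols came from a RefSeq gene table of the horse assembly TB-T2T (21420 of 24942 IDs matched). edgeR 4.0.16 (R 4.3.3) was run on the counts: filterByExpr with a minimum count of 10 left 15342 genes, TMM scaling, robust quasi-likelihood F-test with the mare as block, Benjamini-Hochberg adjustment over all genes. The SE is the log2 fold change divided by the square root of F. The 95% intervals use the t distribution with the test's degrees of freedom. Same-mare libraries deviated together from the mean of their group (correlations across genes of 0.38 to 0.54). Values between mares were at most -0.015, but taking out the group mean itself pushes these below 0, so they are no independent contrast. The series' design text states the pairing. Tests were checked on simulated data. The simulated counts took the spread usual for a gene's mean level, so the check does not cover the wide spread of many members. Alternatives were DESeq2 1.42.0, limma 3.58.1 (voom, and on log2 of the scaled values plus 0.5), the likelihood ratio test, 2 other scalings, 2 other filters, thinning, no block and leaving out each mare. Median deviations use log2 CPM with a prior count of 2.

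Members, lists and tests were chosen with earlier results of these data known. Named were all members with at least 10 counts and, per other list, up to 4 risers or fallers of smallest p. Some of these are not reported here. No sequences are shown, as none were used here.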

Additional observations from a re-analysis of the deposited data

Results flagged for a closer look

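Of 60 sets of 4 libraries (30 genes in 2 states), 1 had a library set apart by Dixon's test: GADD45B in the cyclic library of mare 3, at 36.6 CPM, where the other cyclic libraries had 9.47 to 12.1 CPM. The gap to the nearest was 0.901 of the whole range. Chance alone flags about 1 set in 20.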

How the results depend on the processing

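Of 446 values of single members under 15 alternatives, 381 kept their direction and their side of the threshold, 7 lost and 8 gained a call in the same direction, 1 (KLF4, below) turned and gained a call, and 49 that passed under neither setting changed sign, 11 of them without mare 4 and 16 without mares 1 and 4. With 4 pairs, and wide spread in 20 of 30 members, changes of several fold in those genes could be missed. Of 30 members, 3 were called in the main test, beside 2565 of all 15342 genes. Without the replicate block 2 were called (FOSL2 and IER3), beside 389 genes in all. The likelihood ratio test called 5 (with IER3 and MAFF added), beside 2603 genes in all. When a mare was left out, 1 to 7 members were called. The lowest was 1 without mare 1 (ZFP36L1), beside 1266 genes in all, and the highest 7 without mare 3, beside 1865. Without mare 2 and without mare 4 there were 3 each, beside 1835 and 2082 genes in all. Leaving out mares 1 and 4, which held the 3 lowest libraries and were chosen after seeing the data, left 2 pairs, 789 calls in all and 1 member called, KLF4, whose log2 fold change turned from 0.11 to -1.22, and FOSL2, ZFP36L1 and KLF6 lost their calls (adjusted p 0.153, 0.0716 and 0.233). Differences of members between mares numbered 0 in the main test (15.9% of all genes) and 0 to 2 without a mare, where the share of all genes is not given. Why calls changed was not tested, beyond the smaller number of libraries.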
